A study of Homo sapiens with 4 samples.

Results

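The Toll-like receptor genes TLR1 to TLR10 were chosen by their gene symbols, as all 19 probe sets that the array annotation assigns to these 10 genes, of 18239 genes with a value. They were selected on earlier results of these arrays, namely their levels, their difference between the lines and their difference with CC-292, so these values are a description and carry no test. Of the 10 genes, 8 reached the brightness minimum, which was the median of all values (log2 4.63) on at least 1 array. TLR3 and TLR5 did not reach it. A gene could pass through REC-1 alone, where most receptors were brighter, so counts over the 8 kept genes support nothing by themselves.

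Gene expression was measured on 4 arrays in 2 established human mantle cell lymphoma lines, REC-1 and Z138, a B-cell lymphoma driven by cyclin D1. Each line gave 1 control array and 1 array of cells exposed to CC-292, a covalent inhibitor of Bruton tyrosine kinase (BTK). Exposure or culture lasted 48 h by the titles, except that the Z138 control has none stated. The protocol gives 1 uM CC-292 and the titles of the treated arrays 1 mM. No group had a replicate, each group is 1 culture of 1 line, and the labels used here name no genotype for either line. Values are log2 signals, so that a difference of 1 is 2-fold.

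Toll-like receptors are membrane sensors of microbial molecules. TLR1, TLR2, TLR4, TLR5, TLR6 and TLR10 are placed mainly at the cell surface, where TLR2 pairs with TLR1 or TLR6 to bind lipopeptides, TLR4 binds lipopolysaccharide and TLR5 binds flagellin. TLR3, TLR7, TLR8 and TLR9 sit in endosomes and bind nucleic acids. Apart from TLR3, and from TLR10, which has been described as inhibitory, they signal through the adaptor MyD88 towards NF-kB. BTK has been placed on this MyD88 route as well as on that of the B-cell receptor. Human B cells are known for TLR7, TLR9 and TLR10, whereas TLR4 and TLR8 are better known from myeloid cells.

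The labelled cell type was checked against its markers. All 5 B-cell genes with a value (MS4A1, CD79A, CD79B, PAX5 and CD22), as well as CCND1 and SOX11, lay above the nonspecific probe sets on all 4 arrays. This background is given by 23 control probe sets that match no human transcript, of which 22 lay at or below 4.37 to 4.49 on each array. The remaining probe set read 6.43 to 7.09 and was left out of this range. Each later statement of a value within or above the nonspecific range, and each lower limit of a fold, depends on that choice. Of 9 myeloid and plasmacytoid dendritic cell markers with a value, 8 (CSF1R, LYZ, MPO, ITGAM, S100A8, S100A9, FCGR1A and CLEC4C) lay within that range on every array. The exception was LILRA4, at 9.68 (control) and 10.20 (CC-292) in REC-1 and 3.53 and 3.41 in Z138. The summed log2 level of the 9 markers was 36.4 and 37.6 in REC-1 and 29.0 and 29.2 in Z138, a gap made mainly by LILRA4. Of 6 T and NK cell markers, 4 lay within the nonspecific range on every array and none lay above it on all 4. Hybridization controls were also higher on the REC-1 control array than on the Z138 control array, by a median of 0.33 (0.17 to 0.53 over 9 probe sets). For ACTB, the 3' minus 5' signal was 0.77 and 0.53 in REC-1 against 1.12 and 1.11 in Z138. The part of these differences in the results between lines was not tested.

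The receptors differed far more between the lines than with CC-292, and so did the kept genes as a whole. With CC-292, 0.841% of all kept genes were at least 2-fold higher in REC-1 and 0.758% lower. In Z138 these shares were 0.213% and 0.351%. On the control arrays 7 of the 8 kept genes were at least 2-fold higher in REC-1 and none was at least 2-fold lower on its brightest probe set, where 11.9% and 12.4% of 10823 genes lay past these limits. For 5 of the 7 (TLR1, TLR4, TLR8, TLR9 and TLR10) the difference on the brightest probe set also passed 2-fold as a lower limit. Here Z138 was raised to the top of the nonspecific range where it lay within it. For TLR2 and TLR6 it did not. These limits depend on leaving out the brightest nonspecific probe set, which read 6.84 on the Z138 control array. Against that reading, REC-1 would be less than 2-fold higher for TLR1 (6.50), TLR4 (7.78), TLR8 (6.21) and TLR9 (6.87). Of the 5, only TLR10 (9.32) would still pass. The median of the 8 genes was 2.07, against 0.02 over all kept genes. Since the receptors were selected on this difference, the gap between these medians is a description only. TLR4, TLR10, TLR8 and TLR9 differed most, TLR1, TLR2 and TLR6 less, and TLR7 went the other way. With CC-292, TLR8 in REC-1 was the single gene at a 2-fold difference, and TLR10 in Z138 lay just under it with 3 of 3 probe sets lower.

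**Figure D1:**
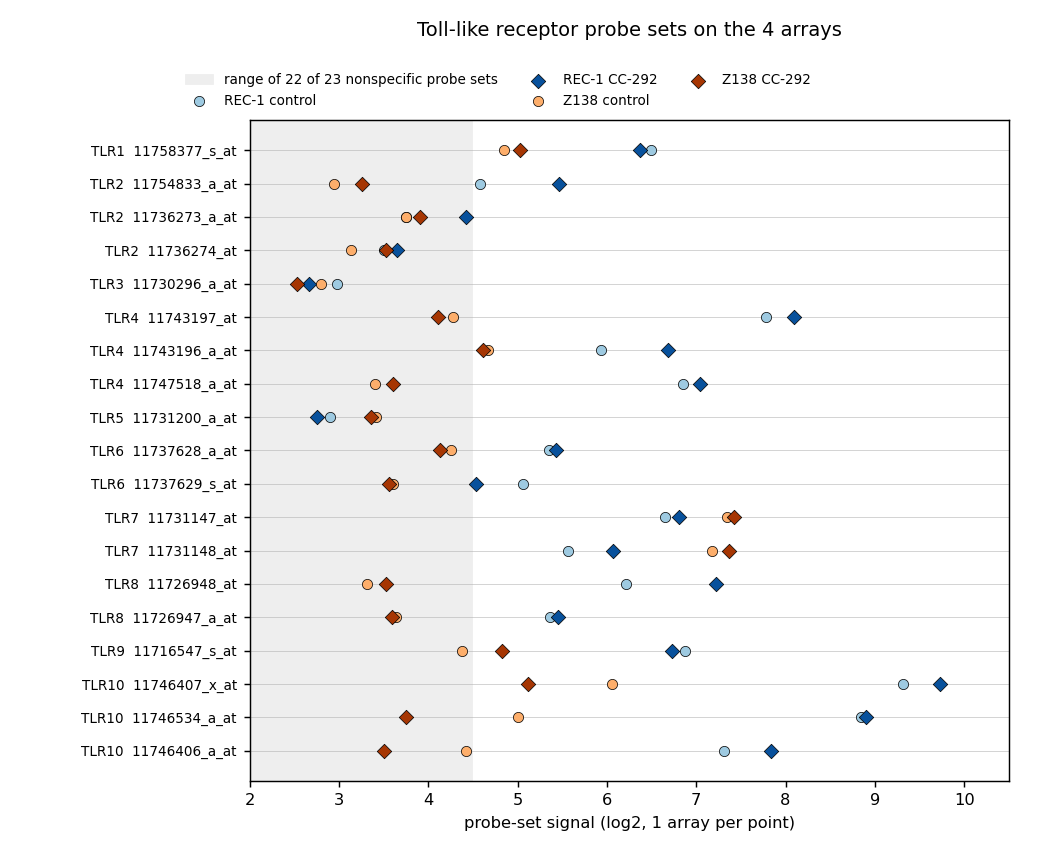
Log2 signal of each of the 19 Toll-like receptor probe sets on the 4 arrays (x axis), 1 point per array, with the range of 22 of 23 nonspecific probe sets shaded. The REC-1 points of TLR4, TLR8 and TLR10 lie right of the shaded range while most Z138 points of TLR4 and TLR8 lie in it, and TLR7 has its Z138 points right of its REC-1 points.

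Among the surface receptors, TLR4 and TLR10 showed large differences between the lines. Its brightest probe set (11743197_at) read 7.78 on the REC-1 control array, 8.10 on the REC-1 CC-292 array, 4.27 on the Z138 control array and 4.11 on the Z138 CC-292 array. Its second probe set (11743196_a_at) read 5.94, 6.69, 4.67 and 4.61 in the same order, and the remaining one (11747518_a_at) 6.85, 7.04, 3.40 and 3.60. Both REC-1 arrays lay above both Z138 arrays on all 3 probe sets. How many of all genes had no overlap between the lines was not counted, so this trait carries no weight. Control differences of 1 sign on all kept probe sets were common, in 69.4% of the 6762 genes with several. The control difference was 3.51 on the brightest and a mean of 2.74 over the 3 probe sets (SD 1.28). This SD, like those that follow, is the spread over probe sets of a gene and holds no error between cultures or arrays. Because Z138 lay within the nonspecific range on 2 of the 3 probe sets, the fold has only a lower limit there. Taking the top of that range as the highest signal Z138 could have had, TLR4 was at least 10.1-fold higher in REC-1 on its brightest probe set. On 11747518_a_at this limit was 5.28-fold. On 11743196_a_at, where Z138 lay above the range on both arrays, the control difference was smaller, at 1.26 or 2.40-fold.

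TLR4 works with the co-receptor MD-2, encoded by LY96, and takes its ligand from CD14. LY96 was measured in both lines, at 7.37 and 7.51 in REC-1 and 6.43 and 6.23 in Z138, whereas CD14 and the lipopolysaccharide carrier LBP stayed below the brightness minimum on all arrays.

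TLR10, a receptor of B cells that can pair with TLR2 and has been described as inhibitory, was bright in REC-1 on all its probe sets. The brightest (11746407_x_at) read 9.32 on the REC-1 control array, 9.73 on the REC-1 CC-292 array, 6.06 on the Z138 control array and 5.11 on the Z138 CC-292 array. The other two read 8.85, 8.91, 5.01 and 3.75 (11746534_a_at) and 7.31, 7.84, 4.42 and 3.51 (11746406_a_at). Lines did not overlap on any of the 3 probe sets, a trait that was not counted over all genes. The control difference was 3.26 on the brightest, 3.84 and 2.89 on the others (mean 3.33, SD 0.48), which is 9.58-fold on the brightest. A total of 154 of 10823 genes had a larger difference.

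TLR1 and TLR6, partners of TLR2 in lipopeptide binding, were also higher in REC-1. TLR1 had 1 probe set (11758377_s_at), at 6.50 (control) and 6.37 (CC-292) in REC-1 and 4.85 and 5.03 in Z138. The TLR1 control difference was 1.64, or 3.13-fold. TLR6 read 5.35, 5.43, 4.26 and 4.13 on its brightest probe set (11737628_a_at) and 5.06, 4.53, 3.61 and 3.56 on the second (11737629_s_at), in the order REC-1 control, REC-1 CC-292, Z138 control and Z138 CC-292. TLR6 thus lay above the nonspecific range in REC-1 and within it in Z138, with control differences of 1.09 and 1.45. Against the top of that range the lower limits were 1.86-fold and 1.52-fold. The suffix _s_at marks probe sets that can match several related transcripts, and _x_at those with some probes that match other sequences. TLR1 and TLR6 are close paralogs, so that their _s_at signals may be shared. TLR10, TLR1 and TLR6 neighbour each other on chromosome 4 in the RefSeq annotation, and all 6 of their probe sets were higher in REC-1, by 1.09 to 3.84.

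TLR2 was dim and its probe sets disagreed. The brightest (11754833_a_at) read 4.58 (control) and 5.46 (CC-292) in REC-1 and 2.95 and 3.26 in Z138, a control difference of 1.63. The second (11736273_a_at) read 3.75 on both control arrays, and the other (11736274_at) 3.50 in REC-1 and 3.13 in Z138. Neither left the nonspecific range on any array, and the mean difference over the 3 probe sets was 0.67 (SD 0.86). Against the top of the nonspecific range, the brightest probe set set a limit of only at least 1.09-fold. TLR5, the flagellin receptor, had 1 probe set, with all values between 2.76 and 3.42, within the nonspecific range.

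Of the endosomal receptors, TLR8 and TLR9 were higher in REC-1 and TLR7 was higher in Z138. TLR8, a receptor for single-stranded RNA, read 6.21 (control) and 7.23 (CC-292) in REC-1 and 3.32 and 3.53 in Z138 on its brightest probe set (11726948_at). The second TLR8 probe set (11726947_a_at) read 5.36 and 5.45 in REC-1 and 3.64 and 3.59 in Z138. Z138 lay within the nonspecific range on both, and REC-1 above it on both. The control differences were 2.90 and 1.72 (SD 0.83). Their lower limits were 3.39-fold on the brightest probe set and 1.88-fold on the second.

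TLR9, the receptor for unmethylated CpG DNA, had 1 probe set (11716547_s_at), of the kind that can match several related transcripts. It read 6.87 on the REC-1 control array, 6.73 on the REC-1 CC-292 array, 4.38 on the Z138 control array and 4.83 on the Z138 CC-292 array. The TLR9 control difference was 2.50, and at least 5.35-fold against the top of the nonspecific range. Since 1 probe set gives no spread, the typical SD within a gene is given instead, which was 0.48 when pooled over 6762 genes.

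TLR7, which like TLR8 binds single-stranded RNA, was the single kept receptor with more signal in Z138. Its probe sets read 6.65 and 6.81 in REC-1 against 7.35 and 7.42 in Z138 (11731147_at), and 5.56 and 6.06 against 7.17 and 7.36 (11731148_at), control before CC-292. All 8 values lay above the nonspecific range. The lines did not overlap on either probe set, a trait that was not counted over all genes. The control differences were -0.70 and -1.61, a mean of -1.15 (SD 0.64). TLR7 and TLR8 are neighbours on the X chromosome in the RefSeq annotation and differed between the lines in opposite directions on all 4 of their probe sets. TLR3, the receptor for double-stranded RNA, had 1 probe set between 2.53 and 2.98 on the 4 arrays, within the nonspecific range.

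The difference between lines was also present on the CC-292 arrays. There it was 3.99 for TLR4, 4.62 for TLR10, 3.70 for TLR8, 1.90 for TLR9, 1.34 for TLR1, 2.20 for TLR2, 1.30 for TLR6 and -0.61 for TLR7 on the brightest probe sets. Each of these 8 genes had the same sign as on the control arrays, and the sizes for TLR2, TLR4, TLR6 and TLR8 are against Z138 values within the nonspecific range. The receptors were selected on their line difference, and the share of all genes that kept their sign was not counted. The same sign is thus a description. The sets of arrays share the line and no array.

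**Figure D2:**
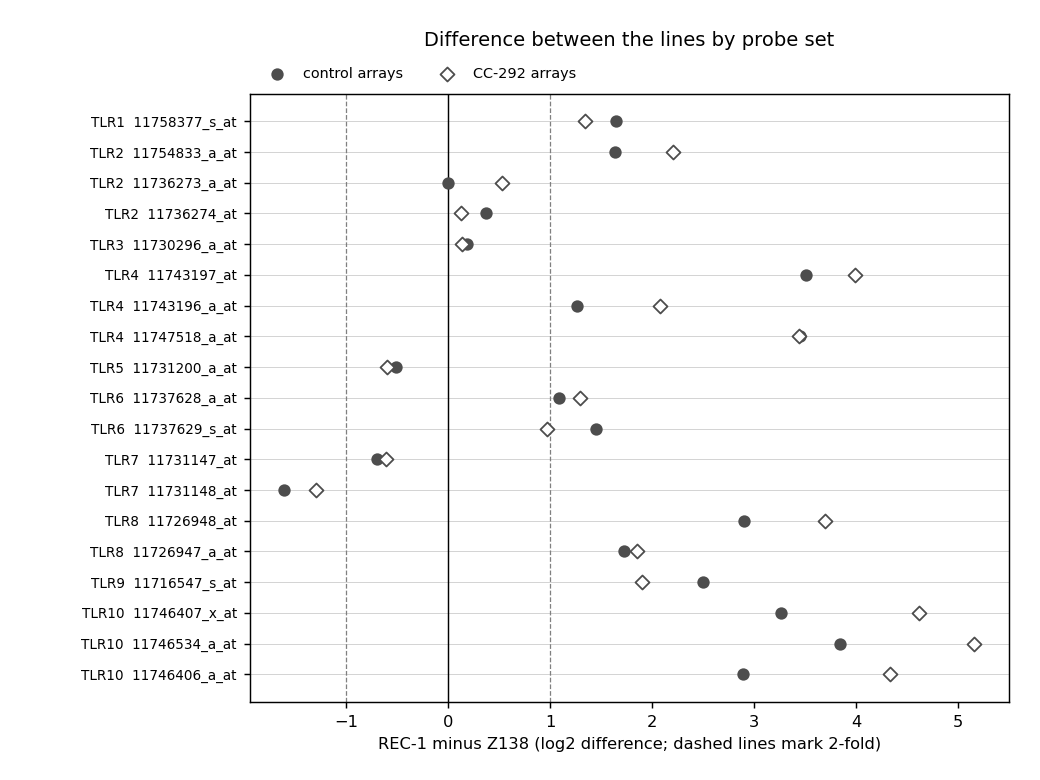
REC-1 minus Z138 difference of each probe set (log2, x axis) on the control arrays (filled circles) and on the CC-292 arrays (open diamonds). TLR4, TLR8, TLR9, TLR10, TLR1 and TLR6 lie right of 0 on both pairs of arrays and TLR7 lies left of 0 on both.

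Promoter sequences set the values beside the DNA ahead of each gene. They are shown for TLR4, TLR8 and TLR9, which were higher in REC-1 on every probe set, and for TLR2, whose probe sets disagreed. The 250 bases before the start of TLR2, TLR3, TLR4, TLR5, TLR6, TLR8 and TLR9 were read from a RefSeq promoter table (GRCh38.p14), 7 of the 10 genes. They were searched on both strands for GAGGAA, a core bound by the myeloid and B-cell factor PU.1, for GGG and CC set 5 bases apart, a loose NF-kB motif, and for a pair of GAAA set 2 bases apart, as in interferon-stimulated response elements. In the printed sequences, 5′ to 3′ along the gene, capitals mark GAGGAA or its reverse complement in TLR4 and TLR9 and the NF-kB motif in TLR2. TLR4 lies at chr9:117704153-117704402 (+), TLR9 at chr3:52225646-52225895 (-), TLR8 at chrX:12906370-12906619 (+) and TLR2 at chr4:153684030-153684279 (+).
TLR4: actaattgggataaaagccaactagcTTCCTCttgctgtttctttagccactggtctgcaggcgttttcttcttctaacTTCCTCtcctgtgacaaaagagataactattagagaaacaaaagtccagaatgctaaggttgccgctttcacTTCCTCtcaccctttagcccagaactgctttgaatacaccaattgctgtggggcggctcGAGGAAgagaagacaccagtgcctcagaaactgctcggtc
TLR9: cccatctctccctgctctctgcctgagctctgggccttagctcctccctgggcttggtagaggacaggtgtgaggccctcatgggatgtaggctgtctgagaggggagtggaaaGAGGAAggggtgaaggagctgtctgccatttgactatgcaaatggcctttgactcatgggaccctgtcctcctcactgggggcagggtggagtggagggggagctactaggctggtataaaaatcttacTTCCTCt
TLR8: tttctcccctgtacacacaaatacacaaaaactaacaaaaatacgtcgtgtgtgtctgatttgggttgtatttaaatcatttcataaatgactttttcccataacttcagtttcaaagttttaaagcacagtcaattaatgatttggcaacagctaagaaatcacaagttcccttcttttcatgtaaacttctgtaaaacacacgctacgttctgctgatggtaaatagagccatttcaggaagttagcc
TLR2: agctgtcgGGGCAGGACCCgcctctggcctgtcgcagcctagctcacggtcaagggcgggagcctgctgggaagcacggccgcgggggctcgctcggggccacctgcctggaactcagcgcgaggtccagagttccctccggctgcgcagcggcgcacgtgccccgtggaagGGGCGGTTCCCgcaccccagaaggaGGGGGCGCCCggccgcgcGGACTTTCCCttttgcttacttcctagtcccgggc

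The TLR4 window held GAGGAA 4 times, starting 224, 171, 99 and 40 bases before the gene's start. The TLR9 window held it 2 times, at 136 and 7 bases before the start, and the TLR6 window 1 time. Of 35116 promoters of the same length, 23.6% held it, and 3 of these 7 did. The TLR2 window held the NF-kB motif at 6 positions over both strands, some overlapping, and TLR5 was the other gene with it, while 54.4% of all promoters held it. None of the 7 held the interferon motif, found in 3.02% of all promoters. The TLR8 window held none of the 3 motifs. A match is a run of letters and not a bound site.

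In REC-1, the receptors differed little with CC-292, with most values above 0. TLR8 was the single kept gene at least 2-fold higher, and none was at least 2-fold lower, against 0.841% and 0.758% of all kept genes. The TLR8 difference was 1.01 on the brightest probe set (6.21 to 7.23) but 0.09 on the second (5.36 to 5.45), so that its probe sets disagreed (SD 0.65). TLR2 was 0.88 on its brightest probe set (4.58 to 5.46), and 0.68 and 0.15 on the dim others (SD 0.38). TLR4 was 0.32 on its brightest, and 0.75 and 0.19 on the others (mean 0.42, SD 0.29). TLR10 was 0.41, 0.06 and 0.53 (mean 0.33, SD 0.24), and TLR7 was 0.16 and 0.50 (SD 0.24). All probe sets of TLR2, TLR4, TLR7, TLR8 and TLR10 were thus above 0, although only 1 of TLR2 reached the brightness minimum. For the 4 others, all genes with several kept probe sets are the comparison, and in 41.7% of these 6762 genes the probe sets had 1 sign. TLR9 at -0.14, TLR1 at -0.12 and TLR6 at 0.08 on its brightest probe set lay within the pooled SD between probe sets, 0.31. The second TLR6 probe set read -0.53. The median of the 8 kept genes was 0.24, against -0.05 over all kept genes.

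In Z138, TLR10 was lower on the CC-292 array, TLR9 and TLR2 were somewhat higher, and the other kept receptors lay within the spread between probe sets. TLR10 differed by -0.94, -1.26 and -0.92 on its 3 probe sets (mean -1.04, SD 0.19), which is 1.93-fold lower on the brightest. Of 10823 genes, 49 had a lower value than its brightest probe set. On the brightest both arrays lay above the nonspecific range. The CC-292 value of 11746534_a_at lay within it, and 11746406_a_at lay within it on both arrays (4.42 and 3.51), so its difference is one between background values. No kept receptor gene passed a 2-fold difference in either direction on its brightest probe set, where 0.213% of all kept genes were higher and 0.351% lower. TLR9 was 0.45 higher (4.38 to 4.83), with its control value at the edge of the nonspecific range. TLR1 at 0.18, TLR7 at 0.08 and 0.19, TLR4 at -0.17, -0.06 and 0.20, TLR6 at -0.13 and -0.05, and TLR8 at 0.21 and -0.04 lay within the pooled SD of 0.25. TLR2 was at 0.31, 0.15 and 0.39, with every value within the nonspecific range. The median of the 8 genes was 0.13, against 0.01 over all kept genes.

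**Figure D3:**
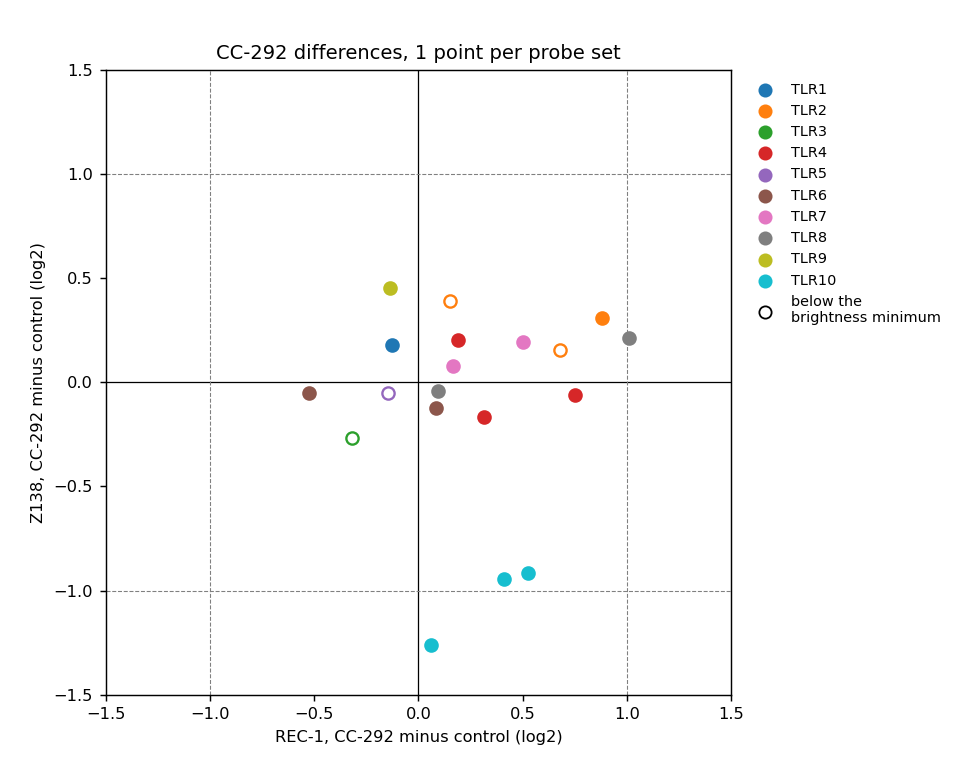
CC-292 minus control difference (log2) of each Toll-like receptor probe set in REC-1 (x axis) and Z138 (y axis), with open points for probe sets below the brightness minimum on all arrays and dashed lines at 2-fold. The 3 TLR10 points lie apart at the bottom, between 0.06 and 0.53 in REC-1 and between -1.26 and -0.92 in Z138.

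TLR10 was the single receptor whose CC-292 difference was at least 2-fold larger in REC-1 than in Z138. The difference between the lines' differences was 1.36 on the brightest probe set, and 1.32 and 1.44 on the others (SD 0.065), and 73 of 10823 genes had a larger one. Over all kept genes, 2.07% were at least 2-fold higher in this comparison and 2.04% lower. TLR8 followed at 0.80 and 0.14 on its 2 probe sets, TLR2 at 0.57, 0.52 and -0.24 and TLR4 at 0.48, 0.81 and -0.01 on their 3 probe sets, so that neither had 1 sign. TLR9 at -0.59 and TLR1 at -0.30 went the other way. With 1 array per group none of these differences between the lines was tested.

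The genes around the receptors were taken from 8 lists of 102 genes, of which 82 were kept. Both arrays of a line were used for a test of the average line difference with limma, with treatment as a block, and p-values adjusted over all genes. It compares these cultures of 2 lines, with 1 residual degree of freedom. Over all genes 21.7% were called higher in REC-1 and 23.1% lower, and in the lists 27 of 82 were called higher and 19 lower. A call was thus common in any list.

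UNC93B1, which carries the endosomal receptors and TLR5 out of the endoplasmic reticulum, was higher in REC-1. It read 6.90 and 7.08 in REC-1 and 3.66 and 3.91 in Z138, and was called higher (limma adjusted p = 0.00011). Both Z138 values lay within the nonspecific range, so that it was at least 5.98-fold higher over the 2 arrays of a line. Of the 14 kept chaperone, trafficking and protease genes, 3 were called higher and 7 lower. The TLR chaperone gene CNPY3 was called higher, with 8.68 and 8.61 in REC-1 and 7.49 and 7.60 in Z138 (limma adjusted p = 0.0038), the chaperone gene HSP90B1 differed by -0.29 (SE 0.19) without a call, and the protease gene LGMN differed by -1.62 on average. SLC15A4 and TASL, which link endosomal receptors to IRF5, were called lower in REC-1, with control differences of -0.74 and -0.81.

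The co-receptor list had 4 kept genes, 3 called higher and 1 lower in REC-1. CD180, a B-cell relative of TLR4, was higher by 2.97 on average (SE 0.16, limma adjusted p = 0.00015), and its partner gene LY86 by 1.60 (SE 0.21). LY96 was called higher too, by 1.11 (SE 0.17), and HMGB1, whose protein can carry nucleic acids to the receptors, lower.

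The shared adaptor MYD88 differed little between the lines, with 8.25 and 8.47 in REC-1 and 8.03 and 7.83 in Z138 (average 0.43, SE 0.18, limma adjusted p = 0.10). TIRAP, the bridging adaptor of TLR2 and TLR4, read 4.42 and 4.91 in REC-1 and 4.38 and 4.28 in Z138. Only its REC-1 CC-292 value lay above the nonspecific range. TICAM1, an adaptor of TLR3, was called lower in REC-1. Of the 22 kept kinase and ligase genes, 7 were called higher and 2 lower. IRAK1 was called higher by 0.72, and BTK and TRAF6 were not called at 0.21 (SE 0.17) and -0.08 (SE 0.16). Among 6 interferon regulatory factors, IRF8 was higher by 3.07 (SE 0.16) and IRF4 lower, at -2.10 (SE 0.23), while IRF5, which acts below the endosomal receptors, differed by 0.29 (SE 0.18). Negative regulators split, with 4 of 13 called higher, among them NLRC3, and 2 lower, SOCS1 and TNFAIP3. NLRC3 was at least 18.2-fold higher in REC-1 and SOCS1 at least 6.09-fold higher in Z138, since the dimmer line lay within the nonspecific range. Of 12 kept response genes 5 were called higher and 2 lower, and of 8 other sensors 4 and 3. The cytosolic DNA sensor genes went both ways, with AIM2 at least 68.7-fold higher in REC-1 and CGAS called lower, where the REC-1 control value of 4.33 lay within the nonspecific range.

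**Figure D4:**
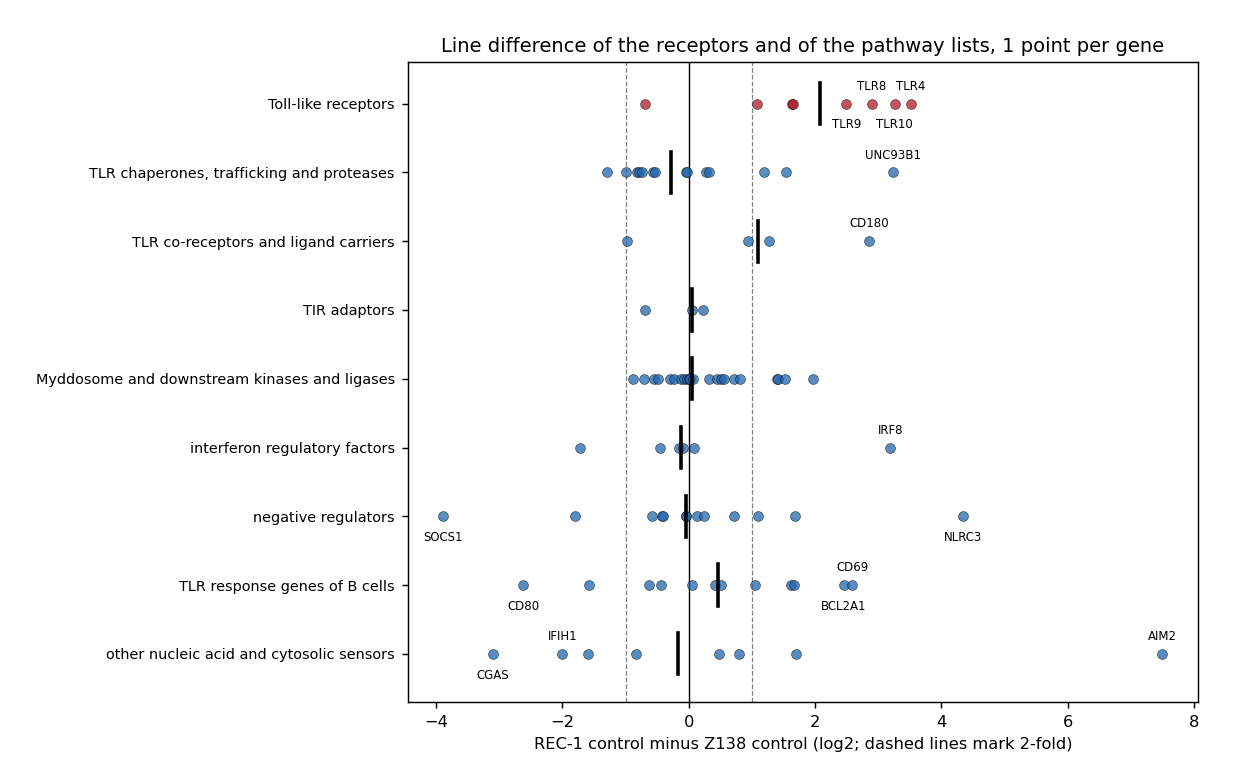
REC-1 control minus Z138 control difference (log2, x axis) of the 8 kept Toll-like receptor genes and of the kept genes of each pathway list, 1 point per gene, with a black bar at the median and names from a 4-fold difference on. The receptor median is 2.07. The receptors were selected on their line difference and the lists were not, so this median cannot be weighed against those of the lists. The list medians differ among themselves, some positive and some negative.

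For CC-292, the average effect over both lines was fitted with limma with the line as a block. It called 0% of 10823 genes higher and 0% lower, with 472 genes at an unadjusted p under 0.05, of which 7 were among the 82 pathway genes. On simulated data the same fit recovered only 14 of 100 genes changed 2-fold, so that changes of this size can be missed. No pathway gene was at least 2-fold higher in either line. In REC-1 2 were at least 2-fold lower, CCL3 and LTA, and in Z138 2, CCL3 and CCL5, all chemokine or cytokine genes of the response list. Over all kept genes, 0.841% in REC-1 and 0.213% in Z138 were at least 2-fold higher, and 0.758% and 0.351% lower. The 2 probe sets of LTA disagreed in REC-1, with -1.10 on the brightest and a mean of -0.49 (SD 0.86). Those of CCL5 in Z138 had a mean of -0.98 (SD 1.18). The CC-292 values of CCL3 and CCL5 in Z138, 4.05 and 4.26, lay within the nonspecific range. The response list had medians of -0.43 in REC-1 and -0.50 in Z138, against -0.05 and 0.01 over all kept genes. Of its 12 genes, 11 and 10 were below 0, and the share of all genes below 0 was not counted. Upstream, MYD88 differed by 0.22 and -0.20, UNC93B1 by 0.18 and 0.25, IRF5 by 0.53 and 0.14 and CD180 by 0.01 and -0.22 in REC-1 and Z138.

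Genes with the profile most like a receptor were taken as those at the smallest Euclidean distance over the 4 arrays after centring each gene on its mean. For TLR10 these were MCTP1 (distance 0.31), the surface antigen gene CD52 (0.36) and GAS1 (0.41). For TLR8 they were MATK (0.06), POLD4 (0.29) and CD1C (0.35), and for TLR4 TBC1D9 (0.18), QRSL1 (0.21) and RNASET2 (0.24). For TLR9 they were PODXL2, TUFT1 and FUCA1, for TLR2 PLPP4, RASAL3 and SLC25A27, for TLR1 NAAA, NDUFC1 and NXT2, and for TLR6 DCXR, MFN2 and TPRG1L. The distance is over 4 arrays without replicates and is a description.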

How the data were processed

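RNA of REC-1 and Z138, each with and without CC-292, was measured on 4 arrays. Each deposited value is the log2 signal of 1 probe set. Per the submitters' processing notes the authors used RMA and Affymetrix Expression Console 1.1, with settings not given in the sources used here. Values ran from 2.18 to 14.26, from which log2 was taken as their scale. RMA compresses differences near background. Depth has no counterpart on arrays, and 1 array per group limits the precision.

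Arrays were grouped by title. Of 49386 probe sets, 45253 had 1 gene symbol and were no array control. Platform symbols were checked by Entrez identifier against RefSeq (GRCh38.p14), where 45172 matched and 0 changed. A gene was represented by its brightest probe set and kept if its highest value reached the median of all values, which left 10823 of 18239 genes. Single arrays allow no test, so genes past a 2-fold difference were counted. The average CC-292 effect (line as a block) and the average line difference (treatment as a block) were fitted in R 4.3.3 by lmFit and eBayes of limma 3.58.1 (1 residual and 4.51 prior degrees of freedom) with Benjamini-Hochberg adjustment and a threshold of 0.05. These p-values measure only the spread between these arrays. Where a line lay within the nonspecific range, its value was raised to the top of that range to give a lower limit of the fold, on the control arrays for receptors and as the mean of both arrays for other genes. Python 3.11.15, pandas 2.3.3, numpy 2.4.6 and matplotlib 3.10.9 did the rest. The fits were first tested on simulated data with 100 genes changed 2-fold and 100 changed 4-fold. For CC-292 14 and 96 of these were recovered, with 6 false calls. For the line difference 24 and 98 were recovered, with 10 false calls. The line fit of the data called 2344 genes higher and 2498 lower, far more than were changed in the simulation. The recovered shares may therefore not describe the power of that fit.

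The members, the lists, the tests and the alternatives were chosen with earlier results of these data known. Named were all members, up to 4 genes of a list and comparison that were at least 2-fold different or highest or lowest, and MYD88, TIRAP, TICAM1, IRAK1, TRAF6, UNC93B1, CD180, LY86, BTK and IRF5 by name. Other list genes named (HSP90B1, LY96, LBP, CD14, SLC15A4, TASL) were chosen after their values were seen. IRAK4, RIPK1, PIK3AP1, TICAM2, CCL4 and CD33, and some other list genes, are not analysed here. Alternatives were the brightness minimum, centring, quantile and cyclic loess normalization, the choice of probe set, the fold threshold, an intensity trend and the block.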

Additional observations from a re-analysis of the deposited data

Results flagged for a closer look

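The CC-292 difference of TLR10 had opposite signs in the lines, 0.41 in REC-1 and -0.94 in Z138 on the brightest probe set, a difference of 1.36 (1.32 and 1.44 on its other probe sets). The brightest is an _x_at probe set, and the others read 0.06 and 0.53 in REC-1, where the pooled SD between probe sets was 0.31, and -1.26 and -0.92 in Z138. Of the 6 Z138 values 3 lay within the nonspecific range. The same held for NLRC3, a negative regulator with 1 probe set, at 0.94 in REC-1 and -0.14 in Z138, a difference of 1.08. In Z138 both NLRC3 values, 3.78 and 3.65, lay within the nonspecific range. Neither difference between the lines was tested, because each group is 1 array.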

How the results depend on the processing

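The count of 7 of 8 kept receptors at least 2-fold higher in REC-1 on the control arrays was 4 of 5 at a brightness minimum of the 70th percentile. It was 6 of 7 with a gene's probe sets averaged and 6 of 8 with the one of median difference. Without _s_at and _x_at probe sets it was 5 of 6, and at 3-fold 6 of 8. The count of 0 lower ones became 1 (TLR7) at 1.5-fold and 1 each with probe sets averaged and with the one of median difference. In REC-1 the count of 1 receptor higher with CC-292 became 0 on averaging probe sets, 0 with the one of median difference, 2 at 1.5-fold and 0 at 3-fold. In Z138 the count of 0 lower receptors became 1 on averaging probe sets, 1 without _s_at and _x_at probe sets and 1 at 1.5-fold, in each case TLR10. For the difference between the lines in the CC-292 difference, 1 receptor higher became 2 at 1.5-fold and 0 at 3-fold, and 0 lower became 1 at 1.5-fold. Among pathway genes, the line counts of 20 higher and 9 lower became 12 higher at 3-fold and 19 lower at 1.5-fold. In REC-1 the 0 higher became 1 without _s_at and _x_at probe sets and 2 at 1.5-fold, and the 2 lower became 1 at the 70th percentile, 1 without those probe sets, 8 at 1.5-fold and 1 at 3-fold. In Z138 the 0 higher became 1 at 1.5-fold, and the 2 lower became 1 at the 70th percentile, 1 with the mean, 1 without those probe sets, 6 at 1.5-fold and 0 at 3-fold. For the difference between the lines, 1 higher became 2 with the probe set of median difference, 10 at 1.5-fold and 0 at 3-fold, and 0 lower became 1 with no minimum and 10 at 1.5-fold. A lower fold threshold or minimum admits more genes by construction, and the cause of the other shifts was not tested. Of the receptors' values only those of TLR6 with CC-292 changed sign, from 0.08 to -0.22 in REC-1 and from 0.21 to -0.13 between the lines, both on averaging its 2 probe sets. Without _s_at and _x_at probe sets TLR10 with CC-292 was 0.06 in REC-1 and -1.26 in Z138. TLR1 and TLR9, each with a single _s_at probe set, have no value in that setting. The line difference of TLR2 was 0.37 when its probe set of median difference was used. The counts called by limma stayed within 1.5 times of those given. The labels carry no replicate numbers and each group is 1 array. Arrays were thus matched only by line or by treatment, which was the block. Signal near the nonspecific range limits the Z138 values of TLR2, TLR3, TLR4, TLR5, TLR6, TLR8 and TLR9, and 3 of the 6 of TLR10.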

Other observations

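The genes beside the TLR10, TLR1 and TLR6 cluster were looked up after the values of the cluster were seen, in the RefSeq gene order of chromosome 4. On the side of TLR6, FAM114A1 was 1.44 higher in REC-1 on its brightest probe set and 0.58 on the other, TMEM156 was 1.84 higher on 1 probe set, and KLHL5 was 0.88 higher (0.88 to 1.24 over 3 probe sets). WDR19 and RFC1 beyond them differed by -0.16 and 0.14. On the side of TLR10, KLF3 was 2.10 higher on the brightest of its 5 probe sets, with a mean of 0.26, TBC1D1 was at 0.71, PGM2 at 0.41, and RELL1 at -2.90 on its brightest probe set (mean -0.94 over 3). Of 9 kept flanking genes among the 6 nearest with a value on each side, 3 were thus at least 2-fold higher and 1 lower, where 11.9% and 12.4% of all kept genes were. The 3 higher genes all lay within the nonspecific range in Z138.

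LILRA4, whose product is a receptor of plasmacytoid dendritic cells known to dampen TLR7 and TLR9 responses, was at least 46.2-fold higher in REC-1 over the 2 arrays of a line, with Z138 within the nonspecific range. CLEC4C, another marker of those cells, lay between 2.90 and 3.49 on all arrays, within the nonspecific range.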
